A study of Mus musculus with 18 samples.

Results

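The comparison described here set a conditional BAP1 knockout line of mouse embryonic stem cells, before any deletion was induced, against wild-type mouse embryonic stem cells. It used 6 of the 18 libraries of the series, chosen by their source label alone. The 3 libraries labelled cKO_D4 are given in the labels as the control of the BAP1 knockout, that is, cells of the conditional line that did not receive 4-hydroxytamoxifen (4-OHT). The 3 libraries labelled WT_D4 are BAP1 wild type. All cells of the series, both groups included, were given emricasan, a caspase inhibitor, and were collected at day 4. In the drug-treated groups, 100 nM 4-OHT was applied for 4 days to switch on Cre recombinase. Whether the wild-type cells also received 4-OHT, whether they carry Cre, which promoter drives it and whether either line is a single clone are not stated in the labels. The remaining libraries, used below only to place this difference, were the untreated C91A line (C91A_D4), the drug-treated conditional line (cKO_D4_4OHT), the drug-treated C91A line (C91A_D4_4OHT) and the RNF2-BAP1 double knockout (dKO_D4_4OHT), 3 of each. Of 36528 genes listed in the files, 16875 had enough counts to be tested.

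BAP1 removes ubiquitin from histone H2A and so opposes the ubiquitin ligases of Polycomb repressive complex 1, among them RNF2. Mouse embryonic stem cells in culture resemble the naive epiblast of the blastocyst. Their state is held by a network of transcription factors fed by the cytokine LIF through STAT3, while FGF and ERK signalling pushes cells towards differentiation. Small numbers of cells in such cultures move towards primitive endoderm, the lineage that makes the basement membrane of the early embryo. Lines of embryonic stem cells can differ from one another in these states, in imprinting and in chromosome content, so a conditional line is usually compared with its own untreated cells. The comparison here shows how far the untreated conditional line already stood from wild type.

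The cKO_D4 libraries held 18416963 to 22076250 counts and the WT_D4 libraries 18177207 to 22252157. Levels are in CPM, the usual unit of read counts scaled by library size, here with a normalisation factor. Changes are log2 fold changes, cKO_D4 over WT_D4, with their standard error (SE), given alone in parentheses where no level is shown, and a gene was called where its adjusted p was under 0.05. Levels in CPM are not corrected for transcript length and are compared only within a gene. The labels do not say that replicates were separate cultures, so p-values measure only the spread between these libraries. That spread was small and let small differences pass. Beyond counting noise, the fit put the coefficient of variation within groups at 4.47%, a common value over all genes and all 18 libraries. Single genes varied by more or less than that. In bulk RNA, fewer cells of a type and less RNA per cell cannot be told apart.

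Bap1 itself stood close to wild type in the untreated conditional line. Its level was 170.03, 167 and 169 CPM in the cKO_D4 libraries, against 171, 183 and 182 CPM in the WT_D4 libraries (log2 fold change -0.08, SE 0.05, adjusted p = 0.18). The ranges did not overlap, but the difference did not pass the test. Rnf2, the ligase deleted together with Bap1 in the double knockout, had 110.3, 114 and 111 CPM in the cKO_D4 libraries, against 122, 107 and 115 CPM in the WT_D4 libraries (log2 fold change -0.04, SE 0.06, adjusted p = 0.62), and the groups overlapped. Gt(ROSA)26Sor, the transcript of the locus often used to carry Cre transgenes, measured 12.9 ± 0.546 CPM in cKO_D4 and 12.2 ± 0.325 CPM in WT_D4 (SD, n = 3 each; log2 fold change 0.07, SE 0.10, adjusted p = 0.59). Bap1 averaged 88.9 CPM in C91A_D4, 149.8 CPM in cKO_D4_4OHT, 153 CPM in dKO_D4_4OHT and 165 CPM in C91A_D4_4OHT. All of these counts run over the whole gene and do not show single exons. Markers of the labelled cell type were present in every library, Pou5f1, Sox2, Nanog and Esrrb among them, with Nanog at a mean of 317 CPM in cKO_D4 and 203 CPM in WT_D4. Markers of blood and endothelium, as other cell types, summed to 173 to 176 CPM in the cKO_D4 libraries and 171 to 178 CPM in the WT_D4 libraries. Most of that sum came from Pecam1 (85.4 CPM in cKO_D4 and 100.4 CPM in WT_D4; -0.23, SE 0.05) and Cd68 (57.4 CPM in cKO_D4 and 46.4 CPM in WT_D4; 0.31, SE 0.07), both named after their values were seen. Of 14 tested, 3 were higher (21.4%), 6 were lower (42.9%) and 5 did not pass the test, with a median of -0.23. Over all genes the shares were 18.5% and 20.8%. The higher ones were Cd68, Vwf (12.6 CPM in cKO_D4 and 5.60 CPM in WT_D4) and Tek (10.2 CPM in cKO_D4 and 8.28 CPM in WT_D4). Tek was named after its value was seen. The lower ones included genes low in both groups, such as Csf1r, a macrophage receptor gene (0.228 CPM in cKO_D4 and 1.31 CPM in WT_D4). Cdh5 was another of them (0.0762 CPM in cKO_D4 and 0.341 CPM in WT_D4). The part of blood and endothelial cells in the results was not tested.

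Across all genes, the untreated conditional line differed from wild type in 6633 of the 16875 genes tested, or 39.3%. Of these, 3126 genes (18.5% of those tested) were higher and 3507 (20.8%) were lower in cKO_D4. Differences of at least 2-fold were fewer, 331 genes higher (1.96%) and 406 lower (2.41%). At an unadjusted p under 0.05, 7906 genes (46.9%) differed. The median log2 fold change of all genes was close to 0 (-0.0045), and among the genes called it was 0.35 for those higher and -0.36 for those lower. The absolute log2 fold change stayed under 0.73 up to the 90th percentile of genes, and the plot of fold change against level shows a narrow band with a few genes far from it. For 49.3% of genes the ranges of the 2 groups did not overlap. Counts of list members given below are to be read beside the 18.5% higher and 20.8% lower over all genes. Some genes stand in several lists, so the lists are not separate lines of evidence.

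**Figure D1:**
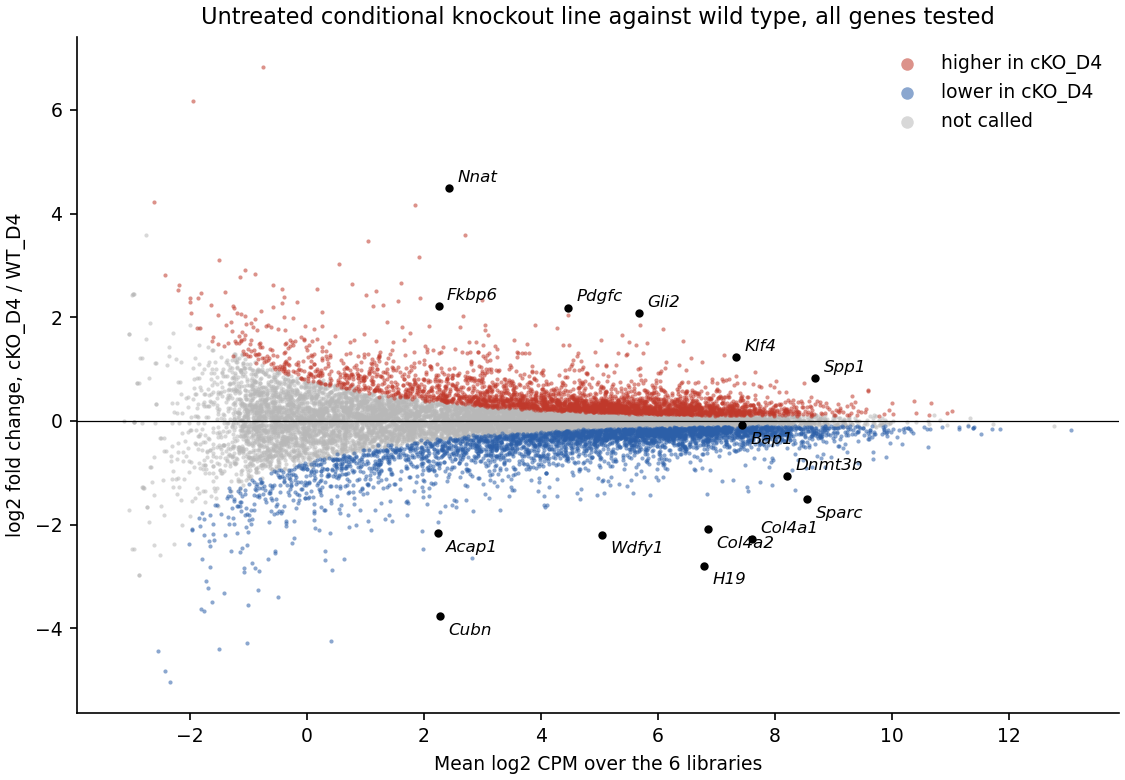
Each point is a gene. The horizontal axis gives its mean log2 CPM over the 6 libraries and the vertical axis its log2 fold change, cKO_D4 over WT_D4. Red and blue points are the 3126 genes called higher and the 3507 called lower in cKO_D4, and grey points were not called. Nnat stands highest and Cubn and H19 lowest among the genes labelled.

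The genes with the highest fold changes in the conditional line included the imprinted gene Nnat, the GLI factor genes Gli1 and Gli2, and the meiotic genes Hormad1 and Fkbp6. The rule took the 10 highest and the 10 lowest among called genes at mean log2 CPM 2 or more whose group ranges did not overlap. Nnat, an imprinted gene for a small membrane proteolipid first known from developing brain, had 24.4, 24.0 and 24.5 CPM in the cKO_D4 libraries, against 1.21, 1.17 and 0.858 CPM in the WT_D4 libraries (log2 fold change 4.49, SE 0.13, adjusted p = 6.6e-29). The gene lies inside an intron of Blcap, whose own difference was -0.07 and did not pass the test. The lowest cKO_D4 library was above every WT_D4 library by a wide margin. Pdgfc, a ligand of PDGF receptors, had 48.3, 45.9 and 47.7 CPM in the cKO_D4 libraries, against 8.69, 10.7 and 11.6 CPM in the WT_D4 libraries (log2 fold change 2.19, SE 0.08, adjusted p = 4.6e-24). Msln, which encodes the cell surface protein mesothelin, had 44.7, 44.6 and 44.6 CPM in the cKO_D4 libraries, against 9.73, 11.0 and 11.7 CPM in the WT_D4 libraries (log2 fold change 2.04, SE 0.08, adjusted p = 4.6e-24). The other high genes named were Erdr1 (2.34, SE 0.12), Fkbp6 (2.22, SE 0.15), Gli2 (2.08, SE 0.07), Hormad1 (2.02, SE 0.16), Gli1 (1.85, SE 0.08) and the small GTPase gene Mras (1.85, SE 0.09). Erdr1 lies in the pseudoautosomal region, where near-identical copies make the assignment of reads uncertain. Fgf1, a fibroblast growth factor below the level limit of the rule and named after its values were seen, had 13.9, 15.2 and 14.2 CPM in the cKO_D4 libraries, against 0.550, 0.948 and 0.858 CPM in the WT_D4 libraries (log2 fold change 4.17, SE 0.18, adjusted p = 1.6e-22).

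The genes with the lowest fold changes were led by products of extraembryonic endoderm and by the imprinted noncoding RNA H19. Cubn, the endocytic receptor cubilin of visceral endoderm, had 1.10, 1.12 and 1.58 CPM in the cKO_D4 libraries, against 18.6, 16.1 and 16.8 CPM in the WT_D4 libraries (log2 fold change -3.77, SE 0.15, adjusted p = 1.5e-23). H19, which is expressed from the maternal allele, had 44.4, 39.7 and 42.2 CPM in the cKO_D4 libraries, against 280.2, 289 and 307 CPM in the WT_D4 libraries (log2 fold change -2.79, SE 0.06, adjusted p = 2.6e-32). Its host-embedded microRNA gene Mir675 lies within H19 and shares its reads, so its log2 fold change of -2.65, SE 0.13 is not a separate measurement. Wdfy1, which encodes a phosphoinositide-binding endosomal protein, had 14.9, 14.7 and 16.3 CPM in the cKO_D4 libraries, against 71.5, 65.4 and 73.5 CPM in the WT_D4 libraries (log2 fold change -2.19, SE 0.07, adjusted p = 6.1e-26). The remaining low genes were Col4a1 and Col4a2, described below, the regulators of small GTPases Acap1 (-2.17, SE 0.16) and Psd4 (-1.94, SE 0.15), the myosin light chain gene Myl3 (-1.76, SE 0.15) and Dab2 (-1.74, SE 0.12), an adaptor of endocytosis in primitive endoderm. In each gene named by this rule every cKO_D4 library lay on the same side of every WT_D4 library, which the rule required.

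**Figure D2:**
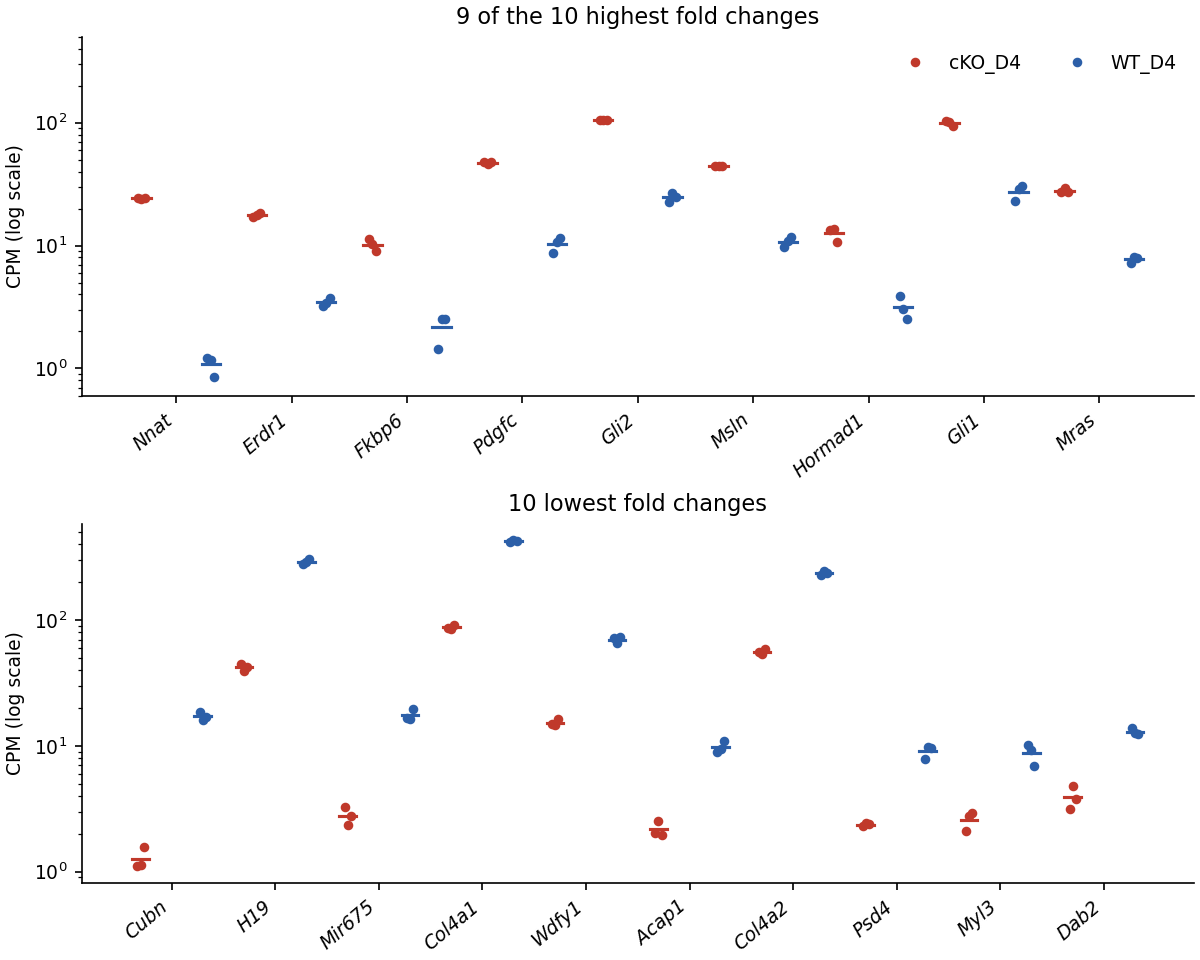
The level of each gene in each library in CPM, on a log axis, for 9 of the 10 highest (top) and the 10 lowest (bottom) fold changes. Red points at the left of each gene are the 3 cKO_D4 libraries, blue points at the right are the 3 WT_D4 libraries, and lines are group means. Nnat stands at 24.0 to 24.5 CPM in cKO_D4 against 0.858 to 1.21 CPM in WT_D4, and Col4a1 at 85.7 to 92.0 CPM in cKO_D4 against 418 to 434 CPM in WT_D4.

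Among genes with many counts, at a mean log2 CPM of at least 8, Sparc, Gab1 and Dnmt3b were lowest and Spp1, Tbc1d13 and Enah highest. Sparc, a matrix protein made in large amounts by parietal endoderm, had 221, 223 and 223 CPM in the cKO_D4 libraries, against 633, 638 and 625 CPM in the WT_D4 libraries (log2 fold change -1.51, SE 0.04, adjusted p = 2.1e-29). Gab1, a docking protein that links receptor kinases to ERK and PI3K, had 200.2, 212 and 206 CPM in the cKO_D4 libraries, against 506, 507 and 539 CPM in the WT_D4 libraries (log2 fold change -1.33, SE 0.04, adjusted p = 1.4e-26). Spp1, which encodes the secreted protein osteopontin, had 559, 566 and 525 CPM in the cKO_D4 libraries, against 309, 305 and 314 CPM in the WT_D4 libraries (log2 fold change 0.83, SE 0.04, adjusted p = 1.4e-20). Tbc1d13, a GTPase-activating protein for a RAB protein, stood at 0.77, SE 0.04, and Enah, which promotes actin filament growth, at 0.72, SE 0.04.

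Genes of naive pluripotency were mostly higher in the untreated conditional line. Of 24 tested members of the list, 21 were higher, 2 were lower and 1 did not pass the test, with a median log2 fold change of 0.39 against -0.0045 over all genes. The summed level of the list was 4459.8 to 4563 CPM in the cKO_D4 libraries and 3319 to 3422 CPM in the WT_D4 libraries. Prdm14, a repressor of FGF signalling and of DNA methyltransferases in embryonic stem cells, had 35.2, 33.8 and 34.5 CPM in the cKO_D4 libraries, against 13.4, 11.3 and 12.7 CPM in the WT_D4 libraries (log2 fold change 1.47, SE 0.08, adjusted p = 9.6e-19). Klf4, a Krüppel-like factor induced by STAT3, had 246, 249 and 248 CPM in the cKO_D4 libraries, against 100.1, 105 and 111 CPM in the WT_D4 libraries (log2 fold change 1.23, SE 0.05, adjusted p = 3.5e-24). Nanog, the homeobox factor at the centre of the network, had 321, 317 and 313 CPM in the cKO_D4 libraries, against 204, 201 and 203 CPM in the WT_D4 libraries (log2 fold change 0.65, SE 0.04, adjusted p = 6.5e-17). No cKO_D4 library overlapped a WT_D4 library in these 3 genes. Esrrb, an orphan nuclear receptor of the same network, measured 752 ± 2.09 CPM in cKO_D4 and 538 ± 12.5 CPM in WT_D4 (SD, n = 3 each; log2 fold change 0.48, SE 0.04, adjusted p = 5.1e-14). The nuclear receptor genes Nr5a2 (1.08, SE 0.07) and Nr0b1 (1.02, SE 0.06), the AKT cofactor gene Tcl1 (0.99, SE 0.09) and the homeobox gene Gbx2 (0.72, SE 0.09) were also higher. The lower members, named after their values were seen, were Dppa3 (-0.23, SE 0.10), a maternal factor, and Stat3 (-0.18, SE 0.05), the transducer of LIF, and Dppa3 lost its call in 7 of the 13 alternatives tried. Set against the untreated C91A line instead of wild type, the naive list had 14 higher and 3 lower, with a median of 0.16.

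The general pluripotency factors differed less. Of 20 members, 10 were higher (50%), 4 were lower (20%) and 6 did not pass the test, with a median of 0.12. Sox2 had 458, 452 and 475 CPM in the cKO_D4 libraries, against 372, 365 and 371 CPM in the WT_D4 libraries (log2 fold change 0.32, SE 0.04, adjusted p = 2.6e-08). Pou5f1, which encodes OCT4, had 1129, 1079.8 and 1074 CPM in the cKO_D4 libraries, against 941, 1057 and 982 CPM in the WT_D4 libraries (log2 fold change 0.14, SE 0.05, adjusted p = 0.024), a call that was lost without cKO_D4 replicate 1 and without WT_D4 replicate 1 or 3. Foxd3, a forkhead factor of the early epiblast, was among the higher members (1.06, SE 0.10), with 20.6 CPM in cKO_D4 and 9.86 CPM in WT_D4. Lin28a, an RNA-binding protein that blocks let-7 maturation, was lower (-0.47, SE 0.04).

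Genes of the LIF pathway, and those of epiblast that leaves the naive state, were called in both directions. Of 15 LIF and STAT3 genes, 8 were higher, 4 were lower and 3 did not pass the test. Of these, Klf4, Socs3, Gbx2, Il6st and Tfcp2l1, all higher, and Stat3, lower, were already counted in the naive list. The higher ones included Lifr, the receptor (0.60, SE 0.07), and Socs3, a feedback inhibitor and direct STAT3 target (0.80, SE 0.05). Socs3 stood at 183, 182 and 176 CPM in the cKO_D4 libraries, against 102, 106 and 102 CPM in the WT_D4 libraries. No cKO_D4 library overlapped a WT_D4 library in Socs3. Of 19 formative and primed epiblast genes, 6 were higher, 7 were lower and 6 did not pass the test. Lef1, a transcriptional partner of beta-catenin, was the highest of them, with 10.7, 11.5 and 11.7 CPM in the cKO_D4 libraries, against 3.08, 3.52 and 3.002 CPM in the WT_D4 libraries (log2 fold change 1.81, SE 0.12, adjusted p = 7.8e-16). Otx2, a homeobox factor of the primed state, was lower (-0.45, SE 0.11), and Pou3f1 stood at -0.05 without passing the test.

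The enzymes of DNA methylation moved apart, with the de novo enzymes lower and TET enzymes higher in the conditional line. Dnmt3b, a de novo DNA methyltransferase, had 200.3, 202 and 209 CPM in the cKO_D4 libraries, against 405, 427 and 445 CPM in the WT_D4 libraries (log2 fold change -1.06, SE 0.04, adjusted p = 7.7e-23). Dnmt3l, its catalytically inactive cofactor, had 191, 183 and 181 CPM in the cKO_D4 libraries, against 303, 327 and 333 CPM in the WT_D4 libraries (log2 fold change -0.80, SE 0.04, adjusted p = 1.1e-19), and Dnmt3a was lower too (-0.58, SE 0.05). Dnmt1, which maintains methylation after replication, was higher (0.31, SE 0.04), as were Tet1 (0.22, SE 0.05), Tet2 (0.58, SE 0.07) and, named after its value was seen, Tet3 (0.27, SE 0.09; call lost without replicate 2 of either group), which oxidise methylcytosine. In these data DNA methylation itself was not measured.

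Most primitive endoderm regulators were lower in the untreated conditional line. Of 9 tested regulators, 1 was higher, 7 were lower and 1 did not pass the test, with a median of -1.40. Gata6, the factor that starts the lineage, had 0.923, 1.17 and 1.27 CPM in the cKO_D4 libraries, against 2.75, 3.16 and 2.95 CPM in the WT_D4 libraries (log2 fold change -1.41, SE 0.22, adjusted p = 1.0e-06). Sox17 had 0.308, 0.467 and 0.158 CPM in the cKO_D4 libraries, against 1.37, 2.03 and 1.48 CPM in the WT_D4 libraries (log2 fold change -2.35, SE 0.38, adjusted p = 2.5e-06), and Gata4 had 5.32, 5.65 and 6.17 CPM in the cKO_D4 libraries, against 8.30, 10.1 and 9.15 CPM in the WT_D4 libraries (log2 fold change -0.69, SE 0.12, adjusted p = 6.8e-06). Levels of these factors were low in every library of both groups, and the ranges did not overlap. Pdgfra, the receptor that marks early primitive endoderm, was lower as well (-1.93, SE 0.20), and Foxa2 stood at 0.166 CPM in cKO_D4 against 0.868 CPM in WT_D4 (-2.39, SE 0.50). Sall3, a zinc finger gene named after its value was seen, was the 1 higher member of the list (1.21, SE 0.12). Against the untreated C91A line, 1 higher and 1 lower were called among the same 9 genes.

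Products of visceral and parietal endoderm were also mostly lower. Of 23 tested genes, 2 were higher, 16 were lower and 5 did not pass the test, with a median of -0.95. Besides Cubn, Dab2 and Sparc, the lower genes included Srgn, a proteoglycan core protein (-4.24, SE 0.31), Plat, tissue plasminogen activator (-2.11, SE 0.22), and Lama1, described below. Nid1, a basement membrane linker protein, was higher (0.87, SE 0.05). Against the untreated C91A line, 3 higher and 15 lower were called.

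The collagen IV pair showed the largest differences of the basement membrane genes. Col4a1 and Col4a2 encode the chains of the main collagen IV trimer and are transcribed away from each other from a shared promoter on chromosome 8. Their promoter windows in RefSeq, from 250 bases before to 50 after the annotated start (GRCm38.p6), overlap by 78 bases at chr8:11312777-11312854. The 2 windows are shown because the genes moved together, with the shared stretch in capitals, Col4a1 from the minus strand (chr8:11312777-11313076) and Col4a2 from the plus strand (chr8:11312555-11312854).
Col4a1: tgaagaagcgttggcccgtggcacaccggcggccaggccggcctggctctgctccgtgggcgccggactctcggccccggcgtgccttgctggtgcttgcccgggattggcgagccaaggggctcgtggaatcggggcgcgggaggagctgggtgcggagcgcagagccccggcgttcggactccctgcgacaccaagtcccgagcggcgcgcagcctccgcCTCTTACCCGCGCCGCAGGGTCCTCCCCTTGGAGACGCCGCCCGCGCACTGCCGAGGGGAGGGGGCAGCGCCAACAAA
Col4a2: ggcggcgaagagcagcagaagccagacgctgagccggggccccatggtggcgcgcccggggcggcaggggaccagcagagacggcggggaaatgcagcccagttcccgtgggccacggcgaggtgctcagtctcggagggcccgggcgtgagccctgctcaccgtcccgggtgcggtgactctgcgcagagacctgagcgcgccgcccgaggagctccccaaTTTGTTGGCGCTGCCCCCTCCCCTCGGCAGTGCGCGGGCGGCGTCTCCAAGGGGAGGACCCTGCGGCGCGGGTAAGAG
The shared stretch reads the same in both when one strand is turned round. Col4a1 had 86.4, 85.7 and 92.0 CPM in the cKO_D4 libraries, against 418, 434 and 429.9 CPM in the WT_D4 libraries (log2 fold change -2.28, SE 0.05, adjusted p = 5.7e-34). Col4a2 had 55.7, 53.6 and 58.8 CPM in the cKO_D4 libraries, against 227, 246 and 238 CPM in the WT_D4 libraries (log2 fold change -2.08, SE 0.05, adjusted p = 1.7e-30). Fitted levels were 4.85-fold lower for Col4a1 and 4.24-fold lower for Col4a2 in cKO_D4. The groups did not overlap, which the naming rule required.

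Most matrix and adhesion genes were lower, the others by less than the collagen IV pair. Of 35 tested collagens, laminins and integrins, 4 were higher, 24 were lower and 7 did not pass the test, with a median of -0.38. Col4a1, Col4a2, Lama1, Lamb1, Lamb2, Lamc1, Nid1 and Nid2 also stand in the list of endoderm products. Lama1, a laminin chain of early basement membranes, had 88.5, 89.96 and 94.5 CPM in the cKO_D4 libraries, against 203, 205 and 204 CPM in the WT_D4 libraries (log2 fold change -1.17, SE 0.05, adjusted p = 7.7e-23). Lama4, another laminin chain (-1.31, SE 0.21), and Itga1, an integrin that binds collagen (-1.16, SE 0.17), were lower. The higher genes, which apart from Fn1 were named after their values were seen, were Nid1, Col18a1 (0.57, SE 0.04), Hspg2 (0.35, SE 0.06), which encodes perlecan, and Fn1, fibronectin (0.34, SE 0.04). Markers of fibroblasts, which can serve as feeder cells for such cultures, moved in the same direction as the matrix genes. Part of that agreement is shared membership, since Col1a1, Col1a2, Col3a1, Col5a1 and Col5a2 stand in both lists. Of 21 fibroblast markers tested, 0 were higher, 13 were lower and 8 did not pass the test. Their summed level was 267 to 274 CPM in the cKO_D4 libraries and 351 to 366 CPM in the WT_D4 libraries. Of the defining ones, Col3a1 stood at 0.720 CPM in cKO_D4 and 0.686 CPM in WT_D4, and Postn at 0.644 CPM in cKO_D4 and 1.10 CPM in WT_D4. Col1a1 measured 10.9 CPM in cKO_D4 and 15.4 CPM in WT_D4 (-0.49, SE 0.09). The part of fibroblasts in the matrix result was not tested.

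**Figure D3:**
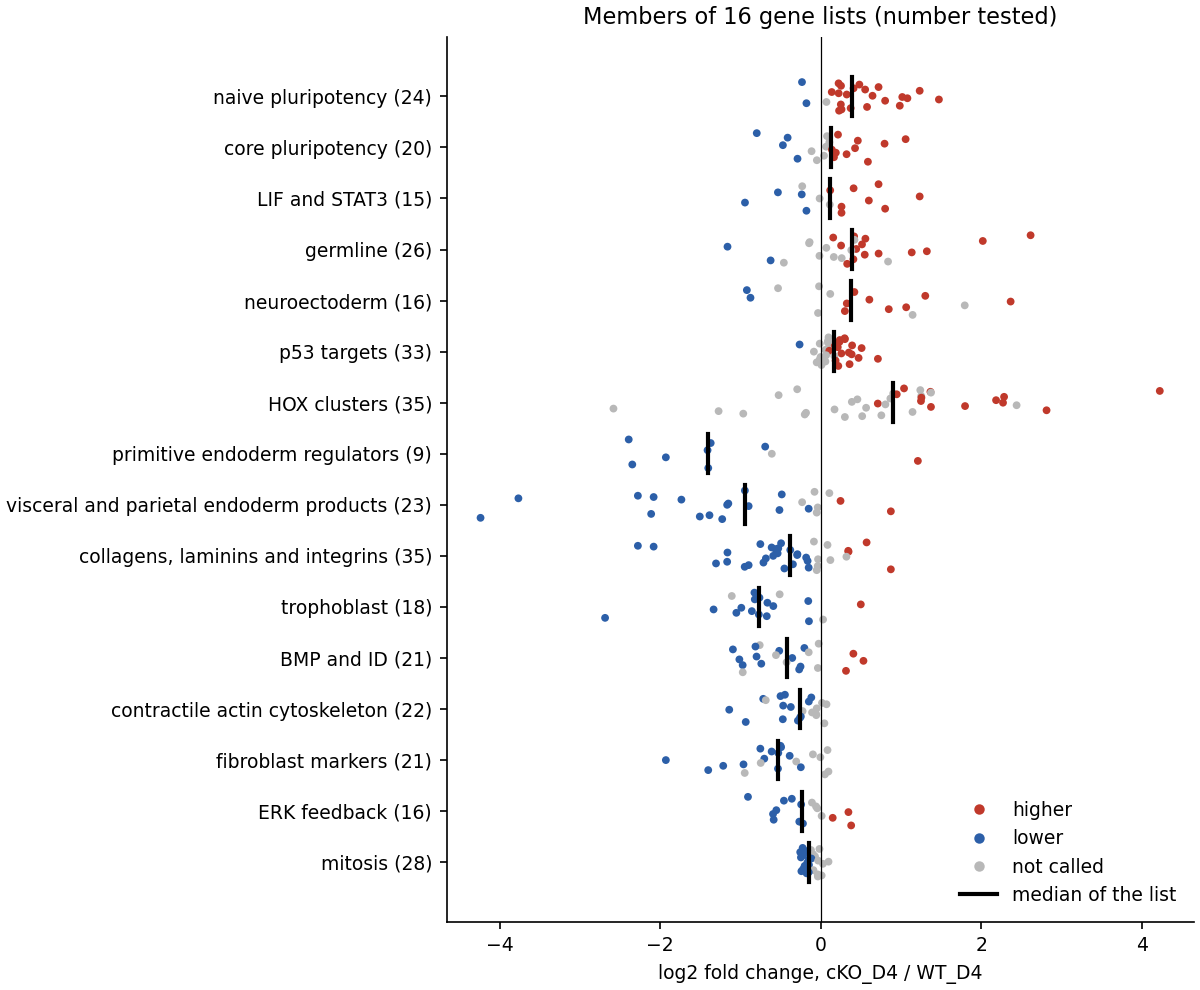
Each point is a tested gene of the list named at the left, placed by its log2 fold change, cKO_D4 over WT_D4. Red and blue points were called higher and lower, grey points were not called, and black bars are list medians. The naive pluripotency list has its median at 0.39 and the primitive endoderm regulators at -1.40.

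Most trophoblast genes, simple keratins among them, were also lower. Of 18 tested genes, 1 was higher, 14 were lower and 3 did not pass the test, with a median of -0.77. Krt18, a keratin of simple epithelia, had 137, 127 and 133 CPM in the cKO_D4 libraries, against 234, 252 and 235 CPM in the WT_D4 libraries (log2 fold change -0.86, SE 0.06, adjusted p = 3.5e-16). Its partner Krt8 had 30.9, 28.6 and 28.9 CPM in the cKO_D4 libraries, against 48.0, 52.0 and 50.8 CPM in the WT_D4 libraries (log2 fold change -0.77, SE 0.08, adjusted p = 1.4e-10). Both keratins were lower in every cKO_D4 library than in any WT_D4 library. Hand1, a basic helix-loop-helix factor of trophoblast and mesoderm, was lower (-1.34, SE 0.10), and so was Plac1, a placental gene of the X chromosome (-2.69, SE 0.31). Cdx2, which defines trophoblast, stood at 0.657 CPM in cKO_D4 and 0.961 CPM in WT_D4 and did not pass the test. The untreated C91A line lay on the other side of wild type for the keratins, with Krt18 at 372 CPM, and 14 trophoblast genes were lower in cKO_D4 than in that line.

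More neuroectoderm genes were higher than lower, and more mesoderm genes lower than higher. Of 16 tested mesoderm and primitive streak genes, 2 were higher, 6 were lower and 8 did not pass the test. Eomes, a T-box factor, was lower (-0.76, SE 0.12), and Gsc, a homeobox gene of the organiser, was higher (1.20, SE 0.33) at 1.06 CPM in cKO_D4 and 0.454 CPM in WT_D4. Of 16 tested neuroectoderm genes, 8 were higher, 2 were lower and 6 did not pass the test, and 1 was lower without the genes of chromosome 8. Ncam1, a neural adhesion molecule, had 18.7, 20.3 and 20.9 CPM in the cKO_D4 libraries, against 8.58, 8.22 and 7.48 CPM in the WT_D4 libraries (log2 fold change 1.303, SE 0.09, adjusted p = 4.8e-15). The transcription factor genes Pax6 (1.06, SE 0.16) and Sox1 (0.85, SE 0.13) were higher, while Nes, the intermediate filament nestin, was lower (-0.88, SE 0.07).

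Gli1 and Gli2, which encode transcription factors of the Hedgehog pathway, were among the 10 highest genes. Other genes of the pathway were looked up after these values were seen, so no count is given for them as a group. Hedgehog ligands relieve the inhibition of SMO by PTCH1 and so activate GLI transcription factors, and Gli1, Ptch1 and Hhip are themselves targets of the pathway. Gli1 had 102, 101 and 94.5 CPM in the cKO_D4 libraries, against 22.9, 28.8 and 30.3 CPM in the WT_D4 libraries (log2 fold change 1.85, SE 0.08, adjusted p = 4.8e-23). Gli2 had 106, 104 and 106 CPM in the cKO_D4 libraries, against 22.5, 26.9 and 24.9 CPM in the WT_D4 libraries (log2 fold change 2.08, SE 0.07, adjusted p = 7.7e-26). Ptch1, the receptor, had 209, 218 and 229 CPM in the cKO_D4 libraries, against 95.1, 87.0 and 88.9 CPM in the WT_D4 libraries (log2 fold change 1.28, SE 0.05, adjusted p = 1.9e-22). The groups did not overlap in any of the 3 genes, which the naming rule required of Gli1 and Gli2. Hhip, which binds ligands, was higher at low levels (1.43, SE 0.31; 1.42 CPM in cKO_D4 and 0.525 CPM in WT_D4). Kif7, a regulator of GLI proteins, was higher (0.31, SE 0.08). Gli3 stood at -0.02, the GLI inhibitor gene Sufu at -0.13 and Gas1 at -0.31, none of which passed the test. Smo (-0.24, SE 0.07) and the co-receptor genes Boc (-0.82, SE 0.23) and Cdon (-0.27, SE 0.07) were lower. Of the ligands, Shh and Ihh were too low to be tested, at up to 0.264 CPM in a cKO_D4 library and 0.286 CPM in a WT_D4 library. Dhh measured 2.97 CPM in cKO_D4 and 2.27 CPM in WT_D4 and did not pass the test.

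Genes that report FGF and ERK signalling were more often lower. Of 16 ERK feedback genes, 3 were higher, 9 were lower and 4 did not pass the test, with a median of -0.23. Dusp4, a phosphatase that inactivates ERK, had 51.6, 48.6 and 52.4 CPM in the cKO_D4 libraries, against 93.9, 95.5 and 96.5 CPM in the WT_D4 libraries (log2 fold change -0.91, SE 0.05, adjusted p = 3.3e-18), and Dusp6, a second one, was lower as well (-0.46, SE 0.07). Spry4, a feedback inhibitor of receptor signalling, was higher (0.38, SE 0.06). Among 14 FGF ligands and receptors, 4 were higher (28.6%), 6 were lower (42.9%) and 4 did not pass the test. Fgf17, a ligand, had 76.1, 79.6 and 75.4 CPM in the cKO_D4 libraries, against 27.6, 27.4 and 25.5 CPM in the WT_D4 libraries (log2 fold change 1.52, SE 0.07, adjusted p = 5.3e-22), and Fgf4, the ligand that drives ERK in these cells, was higher (0.25, SE 0.04). Fgfr1, a receptor, was lower (-0.38, SE 0.05). Of 16 immediate early genes, 4 were higher (25%), 6 were lower (37.5%) and 6 did not pass the test. Over all genes the shares were 18.5% higher and 20.8% lower.

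BMP and ID genes were lower more often than higher, and Nodal pathway genes higher more often than lower. Of 21 BMP and ID genes, 3 were higher, 11 were lower and 7 did not pass the test, with a median of -0.43. The higher ones numbered 1 without cKO_D4 replicate 1 or WT_D4 replicate 3. Bmp4, the ligand, was lower (-0.81, SE 0.09), and so were Id1 (-0.80, SE 0.07) and Id3 (-1.01, SE 0.08), inhibitors of helix-loop-helix factors that BMP induces. Id3 had 12.0, 11.2 and 12.6 CPM in the cKO_D4 libraries, against 23.9, 25.8 and 22.3 CPM in the WT_D4 libraries. Of 22 genes of the activin, Nodal and TGF-beta branch, 7 were higher (31.8%), 4 were lower (18.2%) and 11 did not pass the test. The shares over all genes were 18.5% and 20.8%, and the share lower was close to that. Among the higher ones, Nodal, Lefty2 and Gdf3 were also counted with the general pluripotency factors, and Smad7 with the BMP and ID genes. Inhbb, a subunit of activin B, had 37.4, 38.03 and 42.4 CPM in the cKO_D4 libraries, against 15.1, 14.4 and 17.8 CPM in the WT_D4 libraries (log2 fold change 1.32, SE 0.09, adjusted p = 3.8e-15). Nodal (0.43, SE 0.05) and its target and antagonist Lefty2 (0.80, SE 0.06) were higher. Of 34 WNT genes, 6 were higher, 8 were lower and 20 did not pass the test, shares close to the 18.5% and 20.8% over all genes. Wnt7a, a ligand, was lower (-2.04, SE 0.24), and Notum, a secreted inhibitor and WNT target, was higher (1.004, SE 0.12).

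Germline genes were higher more often than lower. Of 26 tested meiosis and germline genes, 14 were higher, 2 were lower and 10 did not pass the test, with a median of 0.39. Many genes of this class are held silent in embryonic stem cells by complexes that include the E-box-binding factors MAX and MGA. The E-box CACGTG, which reads the same on both strands, was searched in the RefSeq promoter windows (GRCm38.p6). It was found in 11 of 25 germline windows (44.0%), in 10.1% of the windows of tested genes and in 7.24% of all windows. The windows of 3 higher genes are shown because they hold E-boxes, given in capitals, Hormad1 (chr3:95559427-95559726, plus strand), Stag3 (chr5:138280259-138280558, plus strand) and Fkbp6 (chr5:135349995-135350294, minus strand), the last being a meiotic gene outside the list.
Hormad1: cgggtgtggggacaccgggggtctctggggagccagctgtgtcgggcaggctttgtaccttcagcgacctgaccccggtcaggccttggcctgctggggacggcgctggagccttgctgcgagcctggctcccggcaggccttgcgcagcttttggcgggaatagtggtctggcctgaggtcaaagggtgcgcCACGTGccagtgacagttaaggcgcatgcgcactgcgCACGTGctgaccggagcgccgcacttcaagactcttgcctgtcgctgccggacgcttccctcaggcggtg
Stag3: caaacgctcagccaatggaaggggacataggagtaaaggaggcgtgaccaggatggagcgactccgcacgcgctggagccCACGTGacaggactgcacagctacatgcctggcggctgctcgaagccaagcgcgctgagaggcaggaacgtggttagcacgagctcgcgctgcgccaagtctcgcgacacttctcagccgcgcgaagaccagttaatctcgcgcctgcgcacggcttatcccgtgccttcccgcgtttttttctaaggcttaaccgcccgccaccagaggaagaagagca
Fkbp6: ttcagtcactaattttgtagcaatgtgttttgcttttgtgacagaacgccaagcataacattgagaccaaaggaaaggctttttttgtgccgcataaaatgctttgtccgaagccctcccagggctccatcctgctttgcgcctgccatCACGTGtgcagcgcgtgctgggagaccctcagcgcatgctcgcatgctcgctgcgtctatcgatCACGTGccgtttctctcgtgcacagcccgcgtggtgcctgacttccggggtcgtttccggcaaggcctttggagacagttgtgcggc
Calls were then set beside the presence of an E-box. Of the 11 germline genes with one, 5 were higher (45.5%) and 1 was lower, against 8 of 14 higher (57.1%) and 1 lower without one. Among all tested genes with a window, 23.1% of those with an E-box and 19.3% of those without were higher. The windows of Asz1 and Smc1b, which have fold changes above that of Stag3, hold none. Asz1 (2.62, SE 0.88) lost its call without cKO_D4 replicate 1 and without WT_D4 replicate 2. A match is a description of the letters and not a bound site.

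Hormad1, a protein of meiotic chromosome axes, had 13.4, 13.8 and 10.8 CPM in the cKO_D4 libraries, against 3.90, 3.02 and 2.53 CPM in the WT_D4 libraries (log2 fold change 2.02, SE 0.16, adjusted p = 5.7e-14). Fkbp6, a co-chaperone of the piRNA pathway and of meiosis, had 11.3, 10.3 and 8.97 CPM in the cKO_D4 libraries, against 1.43, 2.53 and 2.53 CPM in the WT_D4 libraries (log2 fold change 2.22, SE 0.15, adjusted p = 3.7e-16). Stag3, a meiotic cohesin subunit, had 155, 164 and 163 CPM in the cKO_D4 libraries, against 74.4, 71.9 and 73.0 CPM in the WT_D4 libraries (log2 fold change 1.13, SE 0.05, adjusted p = 1.4e-20). The groups did not overlap in these 3 genes, which the naming rule required of Hormad1 and Fkbp6. Smc1b, another meiotic cohesin subunit, was higher (1.32, SE 0.11), as was Dazl, an RNA-binding protein of germ cells (0.42, SE 0.11). Piwil4, a PIWI protein (-1.16, SE 0.27), and Tdrd1, a Tudor protein of the same pathway named after its value was seen (-0.62, SE 0.14), were lower. Against the untreated C91A line, 17 germline genes were higher and 2 lower in cKO_D4, with a median of 0.66.

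HOX genes, classic Polycomb targets, stood at low levels in both lines. Of 35 tested, 13 were higher, 0 were lower and 22 did not pass the test, but 31 of 39 members were under 1 CPM in all 6 libraries, and 1 was called lower without cKO_D4 replicate 2 or WT_D4 replicate 2. The summed level was 29.7 to 34.9 CPM in the cKO_D4 libraries and 15.4 to 17.3 CPM in the WT_D4 libraries. Hoxb8 had 1.27, 1.21 and 1.64 CPM in the cKO_D4 libraries, against 0.165, 0.271 and 0.381 CPM in the WT_D4 libraries (log2 fold change 2.27, SE 0.38, adjusted p = 4.6e-06), and Hoxb13 had 1.36, 2.01 and 1.74 CPM in the cKO_D4 libraries, against 0.385, 0.451 and 0.191 CPM in the WT_D4 libraries (log2 fold change 2.29, SE 0.35, adjusted p = 8.8e-07). Each value rests on few counts, with 26 to 31 reads of Hoxb8 in the cKO_D4 libraries and 3 to 8 in the WT_D4 libraries. The count of 13 was 7 without cKO_D4 replicate 2 or WT_D4 replicate 3, and 8 without cKO_D4 replicate 3 or WT_D4 replicate 1 and with the 6 libraries alone.

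Subunits of the Polycomb complexes and partners of BAP1 were called in both directions. Of 28 PRC1 subunits, 7 were higher, 6 were lower and 15 did not pass the test, shares not far from the 18.5% and 20.8% over all genes. Among them was Cbx2, a chromatin-binding subunit, at 36.2, 36.4 and 38.1 CPM in the cKO_D4 libraries, against 79.6, 77.7 and 78.2 CPM in the WT_D4 libraries (log2 fold change -1.09, SE 0.06, adjusted p = 2.9e-19). Of 15 PRC2 subunits, 4 were higher (26.7%), 6 were lower (40%) and 5 did not pass the test, and 3 were lower without cKO_D4 replicate 1. Jarid2, which guides PRC2, was higher (0.47, SE 0.04), and the catalytic subunit gene Ezh2 was lower (-0.25, SE 0.05). Of 19 genes of the BAP1 complex and other H2A deubiquitinases, 6 were higher (31.6%), 4 were lower (21.1%) and 9 did not pass the test. Asxl3, the gene of a BAP1 partner, was higher (1.23, SE 0.24) at 2.85 CPM in cKO_D4 and 1.23 CPM in WT_D4. Smarca4, the ATPase of the BAF chromatin remodelling complex and named after its values were seen, had 218, 224 and 237 CPM in the cKO_D4 libraries, against 428, 444 and 431 CPM in the WT_D4 libraries (log2 fold change -0.94, SE 0.04, adjusted p = 5.5e-21). Some of its partner subunits were also looked up after values were seen. Arid1a was higher (0.39, SE 0.05), while Smarcd1 (-0.05) and Smarce1 (-0.03) did not pass the test.

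Imprinted genes differed in both directions and held some of the largest differences of all. Of 41 tested, 8 were higher (19.5%), 16 were lower (39%) and 17 did not pass the test (18.5% and 20.8% over all genes). H19 is the host of miR-675, whose mature RNAs, from RefSeq (GRCm38.p6, chromosome 7, minus strand), are shown because their host gene was among the lowest of all, with the seed in capitals. The 2 seeds differ, so the arms belong to different seed groups, and neither mature RNA was measured in these polyadenylated libraries.
miR-675-3p: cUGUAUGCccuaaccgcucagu
miR-675-5p: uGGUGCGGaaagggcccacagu
Igf2, a growth factor gene next to H19 that is expressed from the other parental allele and was named after its value was seen, was lower too (-1.27, SE 0.05). Rian, a maternally expressed noncoding RNA gene of the Dlk1 cluster, had 2.95, 3.41 and 2.16 CPM in the cKO_D4 libraries, against 8.80, 9.66 and 8.29 CPM in the WT_D4 libraries (log2 fold change -1.64, SE 0.15, adjusted p = 5.5e-12). Meg3, another of that cluster, was lower as well (-0.99, SE 0.13). Peg13, a paternally expressed noncoding RNA gene, stood at 0.0879, 0.187 and 0.211 CPM in the cKO_D4 libraries, against 1.76, 1.53 and 1.91 CPM in the WT_D4 libraries (log2 fold change -3.39, SE 0.46, adjusted p = 8.0e-08). Peg3, a paternally expressed zinc finger gene, was higher (0.19, SE 0.05). Mcts2, which lies within H13 and was named with it after values were seen, was higher (0.99, SE 0.11) while H13 was lower (-0.64, SE 0.05), and the labels do not say whether reads were assigned by strand.

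Of the survival genes of the BCL2 family, Mcl1 alone passed the test. Bcl2, a survival protein of mitochondria, had 882, 847 and 855 CPM in the cKO_D4 libraries, against 682, 773 and 935 CPM in the WT_D4 libraries (log2 fold change 0.11, SE 0.19, adjusted p = 0.68), and its groups overlapped. Without a filter on low counts it was called (0.12), while over the other alternatives the adjusted p ran from 0.091 to 0.97. Mcl1, a second survival gene, had 1446, 1405 and 1455 CPM in the cKO_D4 libraries, against 1241, 1245 and 1393 CPM in the WT_D4 libraries (log2 fold change 0.15, SE 0.04, adjusted p = 0.0022). Bcl2l1 (-0.06) and Bcl2l2 (-0.08) did not pass the test. The genes Bcl2a1a, Bcl2a1b and Bcl2a1d had no reads in any of the 6 libraries, and Bcl2l10 was too low to be tested. Of 11 pro-apoptotic members, 3 were higher (27.3%), 2 were lower (18.2%) and 6 did not pass the test (18.5% and 20.8% over all genes). The higher ones were Bax (0.30, SE 0.05), Bbc3 (0.30, SE 0.06) and Bcl2l11 (0.15, SE 0.06), whose call was lost without cKO_D4 replicate 2 or 3, without WT_D4 replicate 1 or 2 and without chromosome 8. The lower ones were Bmf (-0.34, SE 0.07) and Bok (-0.29, SE 0.08). Bak1, Bad, Bid, Bik, Hrk and Pmaip1 lay between -0.35 and 0.19 and did not pass the test. Of 21 caspase and death receptor genes, 6 were higher (28.6%), 8 were lower (38.1%) and 7 did not pass the test. The necroptosis gene Mlkl was the lowest (-1.28, SE 0.18). The count of 6 higher was 3 when any of 5 single libraries was left out (each cKO_D4 replicate, or WT_D4 replicate 1 or 3).

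Targets of p53 were higher more often than lower, by small amounts. Of 33 tested, 17 were higher, 1 was lower and 15 did not pass the test, with a median of 0.17. Cdkn1a, which encodes the cell cycle inhibitor p21, had 137, 130.5 and 132 CPM in the cKO_D4 libraries, against 111, 114 and 114 CPM in the WT_D4 libraries (log2 fold change 0.23, SE 0.05, adjusted p = 6.5e-05). Rrm2b, a subunit of ribonucleotide reductase, was the highest (0.71, SE 0.11), and Ddit4, named after its value was seen, was the 1 lower gene (-0.26, SE 0.05). Of 28 mitosis genes, 0 were higher, 17 were lower and 11 did not pass the test by edgeR's quasi-likelihood test, with a median of -0.15. DESeq2 called 0 higher as well and 1 was higher at an unadjusted p under 0.05, and 1 was called higher with the 6 libraries alone and without WT_D4 replicate 2. Among the lower ones, Cdk1 measured 239 ± 6.54 CPM in cKO_D4 and 283 ± 7.77 CPM in WT_D4 (SD, n = 3 each). Of 33 replication genes, 6 were higher, 6 were lower and 21 did not pass the test, shares close to the 18.5% and 20.8% over all genes, and the lower ones numbered 2 without the genes of chromosome 8.

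The actin cytoskeleton and cell junction genes were lower where they differed. Of 22 contractile actin genes, 0 were higher, 13 were lower and 9 did not pass the test. Flnc, filamin C, had 40.8, 43.9 and 45.2 CPM in the cKO_D4 libraries, against 87.5, 96.5 and 102 CPM in the WT_D4 libraries (log2 fold change -1.14, SE 0.06, adjusted p = 6.1e-20), and Tpm4, a tropomyosin, was also lower (-0.93, SE 0.05). Of 17 cadherin and epithelial transition genes, 0 were higher, 10 were lower and 7 did not pass the test, and 1 was higher without cKO_D4 replicate 1. Cdh1, E-cadherin, had 985, 972 and 1005 CPM in the cKO_D4 libraries, against 1350.1, 1361 and 1326 CPM in the WT_D4 libraries (log2 fold change -0.45, SE 0.04, adjusted p = 1.2e-13), and the tight junction gene Cldn6 was lower (-0.71, SE 0.05). Cdh2, N-cadherin, stood at -0.15 and did not pass the test. Actg1, a cytoplasmic actin gene, is uncertain, since it has near-identical copies and only uniquely aligned reads were counted (4.69 CPM in cKO_D4 and 7.73 CPM in WT_D4).

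Lipid synthesis and ATF4 response genes were lower more often than higher against wild type, but not against the untreated C91A line. Against that line, 9 lipid synthesis genes were higher and 4 lower, and 8 ATF4 response genes were higher and 6 lower. The lipid synthesis genes summed to 6286 to 6389 CPM in cKO_D4, 6135 to 6349 CPM in C91A_D4 and 6901 to 7212 CPM in WT_D4. Of 31 lipid synthesis genes, 4 were higher, 13 were lower and 14 did not pass the test, with Fasn, fatty acid synthase, at -0.74, SE 0.05. Of 29 ATF4 response genes, 4 were higher, 15 were lower and 10 did not pass the test, with Slc7a11, a cystine transporter gene, lowest (-1.72, SE 0.34), and 2 were higher without WT_D4 replicate 1 and without the genes of chromosome 8. Of 36 glycolysis and hypoxia genes, 12 were higher (33.3%), 8 were lower (22.2%) and 16 did not pass the test. Over all genes the shares were 18.5% higher and 20.8% lower. Egln3, an oxygen sensor gene, was higher (0.64, SE 0.07), and Ldha was lower (-0.24, SE 0.04). Of 79 ribosomal protein genes, 1 was higher, 22 were lower and 56 did not pass the test, counts that are uncertain for the same reason as Actg1, and the lower ones numbered 11 without cKO_D4 replicate 3 and 13 without WT_D4 replicate 1. The number higher was 0 without cKO_D4 replicate 2 or 3, without WT_D4 replicate 1 or 3 and with DESeq2, and 2 with the 6 libraries alone. Of 10 mitochondrially encoded genes, 0 were higher, 7 were lower and 3 did not pass the test, with COX1 at 1234, 1434 and 1301 CPM in the cKO_D4 libraries, against 2098, 1652 and 1893 CPM in the WT_D4 libraries (log2 fold change -0.51, SE 0.07, adjusted p = 7.3e-08). Without WT_D4 replicate 2, 1 was called higher. Against the untreated C91A line, 3 mitochondrially encoded genes were higher and 0 were lower in cKO_D4.

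Interferon-stimulated genes were called in both directions against wild type and almost all lower against the untreated C91A line. Against wild type, of 34 tested, 6 were higher (17.6%), 11 were lower (32.4%) and 17 did not pass the test, with a median of -0.14. Against the untreated C91A line, 32 were lower in cKO_D4 and 1 was higher, with a median of -1.62. Isg15, an interferon-induced ubiquitin-like protein, stood at 0.886 CPM in cKO_D4, 9.25 CPM in C91A_D4 and 0.956 CPM in WT_D4. Genes of the rare two-cell-like state were at or near 0 in both lines, with 19 of 19 under 1 CPM in all 6 libraries. None of the 15 tested was called by edgeR's quasi-likelihood test or by DESeq2, and 2 had an unadjusted p under 0.05, both lower in cKO_D4. Without cKO_D4 replicate 2, 1 was called lower, without WT_D4 replicate 1, 2 were lower, and without WT_D4 replicate 2, 1 was higher.

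Genes of chromosome 8 were lower far more often than higher in the conditional line. Of 859 tested genes there, 426 were lower (49.6%) and 46 higher (5.36%), with a median log2 fold change of -0.22. On the other autosomes and the X chromosome the medians lay between -0.09 and 0.06, and 14.2% to 27.2% of genes were lower. Among the chromosome 8 genes at mean log2 CPM 2 or more, 83.5% had a log2 fold change below 0. The difference ran along the whole chromosome, since in 12 windows of 10 Mb with at least 20 genes each the medians lay between -0.35 and -0.14. Counts from chromosome 8 made up 5.31%, 5.28% and 5.29% of the cKO_D4 libraries, against 6.13%, 6.24% and 6.27% of the WT_D4 libraries. The ranges did not overlap, and the mean share was 0.852 times that of wild type. A 2-sided exact permutation test gave p = 0.1, the smallest that 3 against 3 allows and the value of any groups that do not overlap. Chromosome 8 was singled out after its values were seen, so this test cannot weigh the difference. The share was 5.73% to 5.78% in C91A_D4, between the 2 groups, and 5.33% to 5.40% in C91A_D4_4OHT. It was 5.07% to 5.11% in cKO_D4_4OHT and 5.16% to 5.24% in dKO_D4_4OHT. The number of copies of chromosome 8 was not measured.

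**Figure D4:**
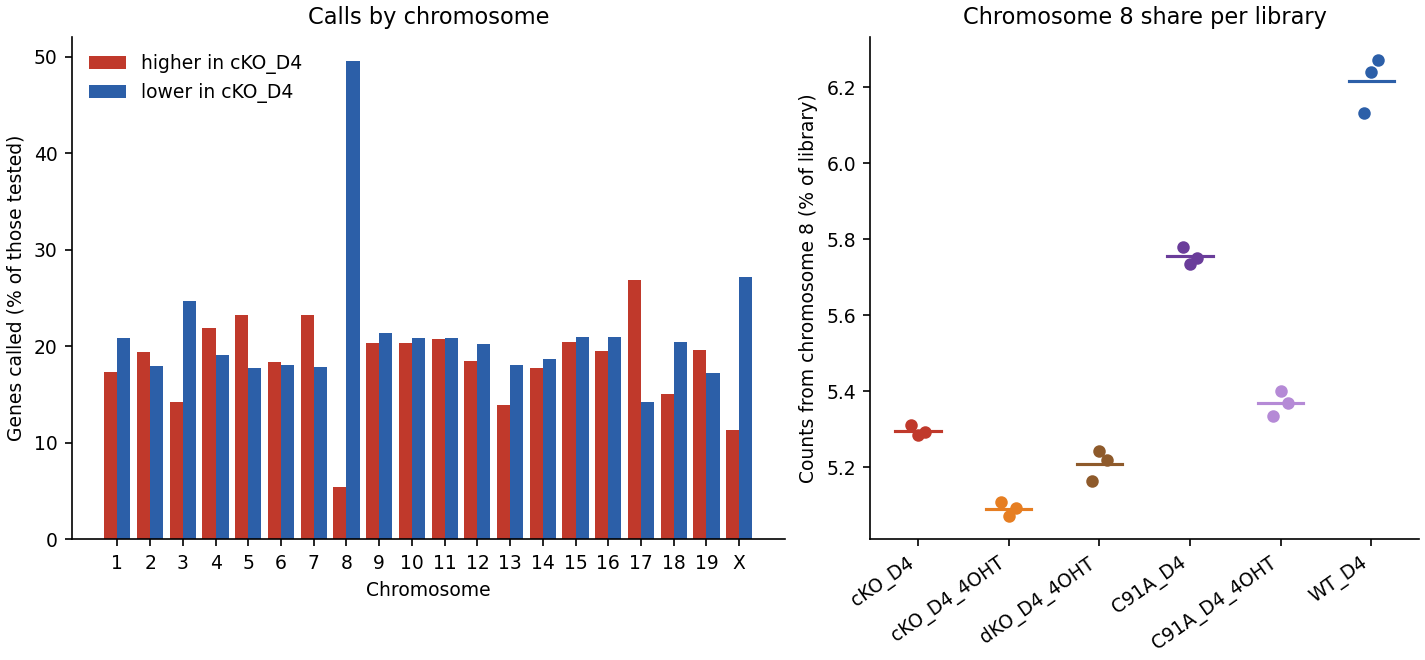
The left panel gives, for each chromosome, the percentage of tested genes called higher (red) and lower (blue) in cKO_D4 against WT_D4. The right panel gives the percentage of each library's scaled counts that came from chromosome 8, with 3 libraries per group and lines at the means, on an axis that does not start at 0. Chromosome 8 has 49.6% of its genes lower, and its share is 5.28% to 5.31% in cKO_D4 and 6.13% to 6.27% in WT_D4.

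Several genes named above lie on chromosome 8. Col4a1, Col4a2, Gab1, Plat, Mlkl, Tpm4 and Dusp4 had log2 fold changes of -0.91 or lower, well below the chromosome's median, while Cdh1 and Fgfr1 were nearer to it and Hhip and Sox1 were higher. Of the 406 genes lower by at least 2-fold, 25 lay on chromosome 8, and of all 3507 lower genes 426 did. With chromosome 8 left out of the lists, the medians were -0.71 for the endoderm products, -0.32 for the matrix genes, -0.22 for ERK feedback and -0.13 for cadherins against -0.23 with it. Refitting all genes without chromosome 8, an alternative chosen after seeing the data, gave 2846 genes higher and 3219 lower.

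Genes of the sex chromosomes were expressed in both lines. Ddx3y, a Y-linked RNA helicase, had 12.4, 11.9 and 10.3 CPM in the cKO_D4 libraries, against 7.92, 7.49 and 7.53 CPM in the WT_D4 libraries (log2 fold change 0.60, SE 0.12, adjusted p = 0.00012), and Eif2s3y, a Y-linked translation factor, was higher as well (0.78, SE 0.10). Uty, a Y-linked demethylase relative, was lower (-0.92, SE 0.19), as was Uba1y (-1.45, SE 0.59), which lost its call in 5 alternatives. Kdm5d stood at 0.115 CPM in cKO_D4 and 0.190 CPM in WT_D4 and did not pass the test. Sry and Zfy2 had no reads in any of the 6 libraries, and Usp9y and Zfy1 were too low to be tested. Xist, the RNA of the inactive X chromosome, had 4.44, 4.90 and 4.38 CPM in the cKO_D4 libraries, against 4.89, 5.19 and 5.29 CPM in the WT_D4 libraries (log2 fold change -0.17, SE 0.16, adjusted p = 0.43), and its groups overlapped.

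Levels in all 6 groups show that some of these differences were shared by the groups named cKO and dKO, while for Wdfy1 the WT_D4 libraries stood apart from every other group. The groups are given side by side, and the only tests reported besides cKO_D4 against WT_D4 were cKO_D4 against C91A_D4 and C91A_D4 against WT_D4. Gli2 averaged 105 CPM in cKO_D4, 85.3 CPM in cKO_D4_4OHT and 104 CPM in dKO_D4_4OHT. It averaged 30.9 CPM in C91A_D4, 26.9 CPM in C91A_D4_4OHT and 24.8 CPM in WT_D4. Smarca4 averaged 226, 257 and 208 CPM in cKO_D4, cKO_D4_4OHT and dKO_D4_4OHT, and 442, 457 and 434 CPM in C91A_D4, C91A_D4_4OHT and WT_D4. Gli2 was higher and Smarca4 lower in cKO_D4 than in C91A_D4 (log2 fold change 1.78, adjusted p = 8.3e-24 for Gli2 and -0.96, adjusted p = 1.9e-21 for Smarca4). Wdfy1 averaged 15.3 CPM in cKO_D4, 19.99 in cKO_D4_4OHT, 14.5 in dKO_D4_4OHT, 13.2 in C91A_D4, 13.4 in C91A_D4_4OHT and 70.1 CPM in WT_D4. Cbx2 averaged 36.9 CPM in cKO_D4, 36.8 CPM in C91A_D4 and 78.5 CPM in WT_D4 (cKO_D4 over C91A_D4, log2 fold change 0.00, adjusted p = 1). In all, 5891 genes (34.9%) were called between cKO_D4 and C91A_D4, 2924 higher (17.3%) and 2967 lower (17.6%) in cKO_D4. At least 2-fold, 287 genes were higher (1.7%) and 528 lower (3.13%), and 7201 (42.7%) differed at an unadjusted p under 0.05. Between C91A_D4 and WT_D4, 4664 genes (27.6%) were called.

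**Figure D5:**
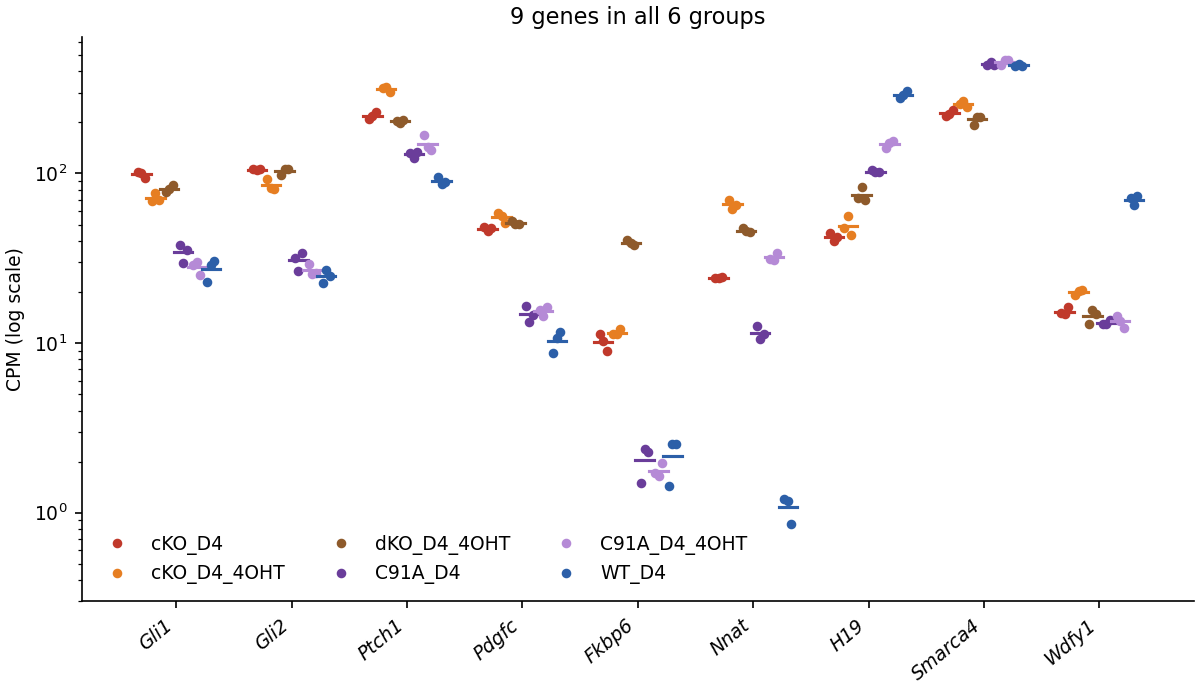
The level of 9 genes in CPM, on a log axis, in all 6 groups with 3 libraries each, lines at the means. From left to right within a gene the groups are cKO_D4, cKO_D4_4OHT, dKO_D4_4OHT, C91A_D4, C91A_D4_4OHT and WT_D4. Gli1, Gli2, Pdgfc and Fkbp6 are higher in the 3 groups at the left than in the 3 at the right, Smarca4 is lower there, and Wdfy1 is high in WT_D4 alone.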

How the data were processed

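Polyadenylated RNA was sequenced as single 50-base reads, per the labels' protocols, and aligned to GRCm38 with GSNAP, per the submitters' processing notes. The authors deposited gene counts, made from reads with a unique alignment, and RPKM values adjusted by size factors, per the file headers. Counts were tested here, and the RPKM values served only to recover the authors' size factors for an alternative. The labels do not say whether reads were assigned by strand, nor the version of GSNAP.

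Genes were kept by edgeR's expression filter by group (minimum count 10), which left 16875 of 36528. Counts were scaled by TMM factors and fitted with edgeR 4.0.16 (R 4.3.3, limma 3.58.1) by the quasi-likelihood method, with 1 mean for each of 6 groups over 18 libraries. P-values were adjusted by Benjamini-Hochberg over all genes tested at a threshold of 0.05. The SE is derived from the F statistic, as the fold change (log2) over its square root. Scripts were tested on simulated counts. The alternatives were the 6 libraries alone, DESeq2 1.42.0 and its size factors, the authors' size factors, no filter, a robust prior and leaving out each replicate. Replicates of a group differed by more than counting noise, so none was merged.

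Named genes were Bap1, Rnf2, Gt(ROSA)26Sor, the Y-linked and BCL2 family genes and Xist, the 10 highest and 10 lowest fold changes, 3 abundant genes in each direction, and of each list its defining members and up to 5 called members with the largest fold change. Others are marked in the text as named after their values were seen. A few genes that the rule selects are not reported here. The members and gene lists were chosen with earlier results of these data known. Gene symbols came from RefSeq for 31049 genes and GENCODE for 78, and 5401 genes had none. Promoter and miRNA sequences came from RefSeq (GRCm38.p6).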

Additional observations from a re-analysis of the deposited data

Results flagged for a closer look

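For 17 named genes, the cKO_D4 and C91A_D4 lines were called on opposite sides of WT_D4, and the 2 lines differed by at least 2-fold in the direct test, at a mean of at least 2 on the log2 CPM scale over the 6 libraries of cKO_D4 and WT_D4 (cKO_D4 over C91A_D4, edgeR's quasi-likelihood test). At that level 17 of 246 genes selected by the naming rule or named in the text (6.91%) met these conditions, and 112 of 11955 tested genes (0.937%). Many genes were named for large differences, so the shares are a description only. Both comparisons with wild type share the WT_D4 libraries.

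Of these, 3 were higher in cKO_D4 and lower in C91A_D4 than in wild type, and 14 the other way round. The keratins and trophoblast factor were in the second set. Krt8 averaged 29.4 CPM in cKO_D4, 82.4 CPM in C91A_D4 and 50.3 CPM in WT_D4 (log2 fold change -1.48, adjusted p = 1.5e-19; C91A_D4 over WT_D4 0.71, adjusted p = 4.6e-10). Krt18 averaged 133 CPM in cKO_D4, 372 CPM in C91A_D4 and 240.5 CPM in WT_D4 (log2 fold change -1.49, adjusted p = 3.6e-24; C91A_D4 over WT_D4 0.63, adjusted p = 5.6e-12). Krt19 averaged 16.2 CPM in cKO_D4, 45.5 CPM in C91A_D4 and 33.5 CPM in WT_D4 (log2 fold change -1.49, adjusted p = 7.2e-20; C91A_D4 over WT_D4 0.43, adjusted p = 6.0e-06). Hand1 averaged 7.23 CPM in cKO_D4, 41.6 CPM in C91A_D4 and 18.2 CPM in WT_D4 (log2 fold change -2.52, adjusted p = 3.5e-24; C91A_D4 over WT_D4 1.18, adjusted p = 1.3e-14).

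So were the BMP ligand gene and the ID genes. Bmp8b averaged 5.11 CPM in cKO_D4, 18.6 CPM in C91A_D4 and 11.0 CPM in WT_D4 (log2 fold change -1.87, adjusted p = 1.0e-17; C91A_D4 over WT_D4 0.77, adjusted p = 7.3e-08). Id1 averaged 20.2 CPM in cKO_D4, 42.5 CPM in C91A_D4 and 35.1 CPM in WT_D4 (log2 fold change -1.07, adjusted p = 9.5e-16; C91A_D4 over WT_D4 0.27, adjusted p = 0.0028). Id3 averaged 11.9 CPM in cKO_D4, 32.3 CPM in C91A_D4 and 24.0 CPM in WT_D4 (log2 fold change -1.43, adjusted p = 1.8e-18; C91A_D4 over WT_D4 0.42, adjusted p = 2.5e-05).

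A matrix and a cytoskeleton gene followed. Sparc averaged 222 CPM in cKO_D4, 681 CPM in C91A_D4 and 632 CPM in WT_D4 (log2 fold change -1.61, adjusted p = 1.2e-30; C91A_D4 over WT_D4 0.11, adjusted p = 0.037). Flnc averaged 43.3 CPM in cKO_D4, 126 CPM in C91A_D4 and 95.2 CPM in WT_D4 (log2 fold change -1.54, adjusted p = 1.6e-24; C91A_D4 over WT_D4 0.40, adjusted p = 1.8e-07).

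Igf2, named after its value was seen, was in the same set. Igf2 averaged 118 CPM in cKO_D4, 710.4 CPM in C91A_D4 and 285 CPM in WT_D4 (log2 fold change -2.59, adjusted p = 4.2e-36; C91A_D4 over WT_D4 1.32, adjusted p = 6.0e-26).

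Chromatin and GTPase genes and a Y-linked gene made up the rest of that set. Dnmt3l averaged 185 CPM in cKO_D4, 399 CPM in C91A_D4 and 321 CPM in WT_D4 (log2 fold change -1.11, adjusted p = 1.6e-24; C91A_D4 over WT_D4 0.31, adjusted p = 8.1e-08). Phf19 averaged 19.8 CPM in cKO_D4, 41.1 CPM in C91A_D4 and 29.5 CPM in WT_D4 (log2 fold change -1.05, adjusted p = 2.7e-15; C91A_D4 over WT_D4 0.48, adjusted p = 1.4e-06). Psd4 averaged 2.36 CPM in cKO_D4, 12.7 CPM in C91A_D4 and 9.05 CPM in WT_D4 (log2 fold change -2.42, adjusted p = 6.2e-18; C91A_D4 over WT_D4 0.48, adjusted p = 0.0014). Uty averaged 3.04 CPM in cKO_D4, 7.98 CPM in C91A_D4 and 5.78 CPM in WT_D4 (log2 fold change -1.42, adjusted p = 2.0e-08; C91A_D4 over WT_D4 0.50, adjusted p = 0.019).

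The genes higher in cKO_D4 were as follows. Inhbb averaged 39.2 CPM in cKO_D4, 10.7 CPM in C91A_D4 and 15.7 CPM in WT_D4 (log2 fold change 1.87, adjusted p = 5.5e-19; C91A_D4 over WT_D4 -0.55, adjusted p = 0.00018). Msln averaged 44.6 CPM in cKO_D4, 8.39 CPM in C91A_D4 and 10.8 CPM in WT_D4 (log2 fold change 2.43, adjusted p = 1.3e-25; C91A_D4 over WT_D4 -0.39, adjusted p = 0.0027). Stag3 averaged 160.4 CPM in cKO_D4, 62.9 CPM in C91A_D4 and 73.1 CPM in WT_D4 (log2 fold change 1.35, adjusted p = 6.1e-23; C91A_D4 over WT_D4 -0.22, adjusted p = 0.0037).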

How the results depend on the processing

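Calls of 175 named genes, the numbers of genes called, the counts of list members and the chromosome 8 median were recomputed in 13 alternatives. No called gene among those 175 changed its direction, and direction was not compared for the other genes. List medians, list counts against C91A_D4 and counts by E-box were not recomputed. The numbers of genes called stayed within 1.5 times those reported. Leaving out 1 replicate gave 2569 to 2902 genes higher and 2973 to 3207 lower in cKO_D4, and the remaining alternatives gave 2846 to 3414 higher and 3166 to 3537 lower. Leaving out the genes of chromosome 8 was chosen after seeing the data. The median log2 fold change of chromosome 8 was -0.22 as reported, -0.22 with DESeq2 or its size factors, -0.21 when low counts were not filtered, and -0.23 to -0.21 without 1 replicate. Of the named genes, 2261 recomputed values for 175 genes gave 2235 on the same side of the threshold, 24 that lost a call and 2 that gained one, in 8 genes. Of the counts of list members, 1196 recomputed values gave 1139 within 1.5 times the reported count and 57 outside it, in 22 of 92 counts, and the report gives these beside the counts it prints. Where edgeR's quasi-likelihood test called no member of a list in one direction, DESeq2 called 0 as well. At an unadjusted p under 0.05, 1 HOX gene was lower and 1 cadherin gene higher, and 0 actin, fibroblast and mitochondrially encoded genes were higher. The share of calls that were higher was 45.8% to 49.1%. The median of all genes, -0.0045 as reported, lay between -0.0082 and 0.0022, on both sides of 0. No paired analysis was possible because the labels carry no replicate numbers, and those used here follow accession order and only name the libraries. Genes under 1 CPM rest on few reads, so a missing call there means that no difference was detectable at this depth.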
